A study of Rattus norvegicus with 46 samples.

Results

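The replication and mitosis genes of the rat duodenum were followed along the villus and across 6 combinations of genotype and diet. A list of 43 genes of DNA replication and the cell cycle was matched to the probe sets by gene symbol, and where several probe sets carried 1 symbol the brightest was used. Probe sets were found for 41 of the 43 genes, out of 14217 genes with a probe set of their own on the array, and all 41 passed the filter on dim probe sets. Rrm2 and Cdc6 were skipped, since no probe set carried either symbol alone. By role the 41 genes comprised 7 of replication licensing, 7 of the fork, 3 of nucleotide supply, 8 cyclins and cyclin-dependent kinases, 13 of mitosis and 3 inhibitors.

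RNA came from cryostat sections of the duodenum cut across the crypt-villus axis, and sections of the upper part (top) and of the lower part (bottom) of the villus were pooled rat by rat, so that each of 22 rats gave 2 Affymetrix arrays. The Wistar rats (+/+) were 1 month old at the start. They were kept on a normal diet (control, 4 rats), made iron-deficient by a low-iron diet with bleeds of 2 to 3 ml every 3 days for 4 weeks (4 rats), or treated in that way and then given 50 µM ferric ammonium citrate in the drinking water for 3 days (iron-repleted, 3 rats, after 1 had died under anesthesia). Belgrade rats (b/b), which carry a mutation of the apical iron transporter Slc11a2 on a Wistar background, were on a normal diet (4 rats) or were fed iron for 3 days (4 rats) or for 6 days (3 rats). No age of the Belgrade rats is given, so that genotype cannot be told apart from a difference in age. All rats were fasted overnight. The lower and the upper crypt of 1 further Wistar rat, from a separate experiment, gave 2 more arrays. Control rats 1 and 2 had nearly identical arrays, as had unfed Belgrade rats 1 and 2, so each of these pairs was averaged and the counted samples numbered 3, 4, 3, 3, 4 and 3 in the 6 groups. In every list of values below, the first control value and the first unfed Belgrade value are such means. A level is given on the log2 scale after normalization, and a difference is that of 2 levels, so that 1 unit is a doubling. Before normalization the array medians ranged from 597 to 1179 intensity units on villus arrays, and they were 672 and 643 on the lower and upper crypt arrays.

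In the small intestine, cells divide in the crypts and stop dividing as they move onto the villus, where absorptive enterocytes mature and are shed at the tip. Before DNA is copied, the helicase of the Mcm proteins is loaded with the help of Cdt1, and the replication fork is then built around the sliding clamp Pcna. Cyclins activate cyclin-dependent kinases in turn, and the genes of the replication and mitotic phases are controlled in large part by the E2F factors and by complexes that bind the CHR element and the CCAAT box. Ribonucleotide reductase, which makes the building blocks of DNA, is an iron-dependent enzyme.

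The promoters of a few members are printed because the members differ in which control words they hold. A link between these words and the levels along the villus was not tested. Promoter sequences were taken from RefSeq on the build GRCr8, and 35 of the 41 members were in that table. Words were searched on both strands in the 300 bases from 250 before to 50 after the start. The E2F words were TTCCCGC and, with other letters in the middle, TTCGCGC or else TTGCCGC or else TTGGCGC. The CHR words were TTTGAA and its variant TTCGAA, which reads the same on both strands and was counted once, and the CCAAT box was searched as CCAAT. Each line gives the 250 bases before the start, 5′ to 3′ on the strand of the gene, for the member with the lowest adjusted p of its role among those with an E2F or CHR word. Capitals mark the matches on either strand. In Mki67 a CHR word and a reversed CCAAT box overlap and form 1 run of capitals. The windows are chr1:166235654-166235903 (+ strand) for Rrm1, chr10:84473094-84473343 (- strand) for Top2a, chr8:79981659-79981908 (- strand) for Ccnb2 and chr1:199952594-199952843 (- strand) for Mki67.
Rrm1: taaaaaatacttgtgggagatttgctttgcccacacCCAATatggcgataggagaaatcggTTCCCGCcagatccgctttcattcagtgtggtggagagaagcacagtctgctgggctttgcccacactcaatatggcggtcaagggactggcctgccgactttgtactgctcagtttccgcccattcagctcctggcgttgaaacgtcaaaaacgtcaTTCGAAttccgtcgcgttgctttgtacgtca
Top2a: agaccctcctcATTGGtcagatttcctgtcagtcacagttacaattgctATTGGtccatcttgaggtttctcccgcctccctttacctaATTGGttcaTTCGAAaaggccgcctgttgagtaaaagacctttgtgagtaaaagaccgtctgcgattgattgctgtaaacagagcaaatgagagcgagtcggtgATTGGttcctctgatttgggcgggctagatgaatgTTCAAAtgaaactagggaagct
Ccnb2: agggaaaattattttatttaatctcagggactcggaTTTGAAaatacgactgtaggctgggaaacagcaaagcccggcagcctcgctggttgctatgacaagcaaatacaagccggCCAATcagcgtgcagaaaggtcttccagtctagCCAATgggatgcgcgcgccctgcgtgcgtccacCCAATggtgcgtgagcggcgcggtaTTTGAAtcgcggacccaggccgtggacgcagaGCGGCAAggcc
Mki67: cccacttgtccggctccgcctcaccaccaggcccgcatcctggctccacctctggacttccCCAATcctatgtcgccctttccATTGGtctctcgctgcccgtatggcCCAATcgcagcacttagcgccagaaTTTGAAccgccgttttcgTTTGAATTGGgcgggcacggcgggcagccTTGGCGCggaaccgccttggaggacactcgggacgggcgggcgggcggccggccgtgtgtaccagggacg

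An E2F word was found in 19 of the 35 promoters (54.3%), beside 9.52% of all 33469 promoters of the table and 11.7% of those of protein-coding genes. All 6 licensing genes in the table held one (Mcm2, Mcm3, Mcm5, Mcm6, Mcm7 and Cdt1), and so did 5 of 7 fork genes, but only 1 of 10 mitotic genes, which was Mki67. A CHR word was found in 12 of 35 (34.3%, beside 19.7% of all promoters), among them 6 of 10 mitotic genes. The CCAAT box was in 21 of 35 (60.0%, beside 37.5%). Ccnb2 and Mki67 held all 3 kinds of word in the printed stretch, with 3 CCAAT boxes in Ccnb2 and 4 in Mki67. Top2a held 4 CCAAT boxes and 2 CHR words there, with no E2F word. A match is a description of the letters and not a measured site.

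A few samples stood apart before any comparison. At the top of unfed Belgrade rat 3 the mean of the 41 members was 11.00, while the other 19 samples lay between 9.30 and 10.67, and its fall from bottom to top was the smallest (-1.11, beside -3.14 to -1.85). The Paneth cell markers at its top averaged 13.11, beside 10.04 to 12.54 in the others, and their part in the small fall was not tested. The bottoms of control rat 3 and iron-repleted rat 3 had the highest means of stroma markers (15.49 and 15.27, beside 12.61 to 14.59) and the lowest of enterocyte markers (12.73 and 12.14, beside 13.51 to 15.40). Markers of the exocrine pancreas averaged 12.04 to 15.83 in 5 bottoms (control rats 1 and 2 as 1 sample, iron-deficient rat 1, unfed Belgrade rat 3, 3-day rat 4 and 6-day rat 2) and 7.69 to 8.52 in the other 15. Before normalization the top array of iron-repleted rat 3 had a median of 1179 intensity units, beside 597 to 757 on the other top arrays, and its bottom array had 960. The robust SD of its differences from its group mates was 0.69 and 0.72 at the top and 0.69 and 0.73 at the bottom, the largest among the pairs of rats within groups. Counts of members between the iron-repleted and the other Wistar groups are also given without this rat. Leaving out any 1 of the 20 samples kept the counts of the comparison along the villus below at 40 members lower and 1 higher, with medians from -2.58 to -2.46.

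Villus top and bottom were compared within each rat to see how these genes fall off along the axis. Of the 41 members, 40 were lower at the top and 1, Cdkn1a, was higher. Over all tested probe sets 28.8% were called lower and 25.5% higher. The median difference of the members was -2.55, beside 0.02 over all 26517 probe sets. A difference below -2, a fall of more than 4 times, was found in 34 members and in 2.26% of all probe sets. The extremes of the members were Ccna2 (-4.03), lower at the top by 16.3 times, and Cdkn1a (1.06). In 37 of the 41 members the top was below the bottom in all 20 counted samples, and the share over all probe sets was not counted for this measure. In 29 members the ranges of the top and the bottom samples did not overlap, beside 8.19% of all probe sets (5.19% with the top below the bottom). All calls are from limma, two-sided, with Benjamini-Hochberg adjustment over all tested probe sets. In pooled sections, fewer cells of a type and less RNA per cell cannot be told apart.

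**Figure D1:**
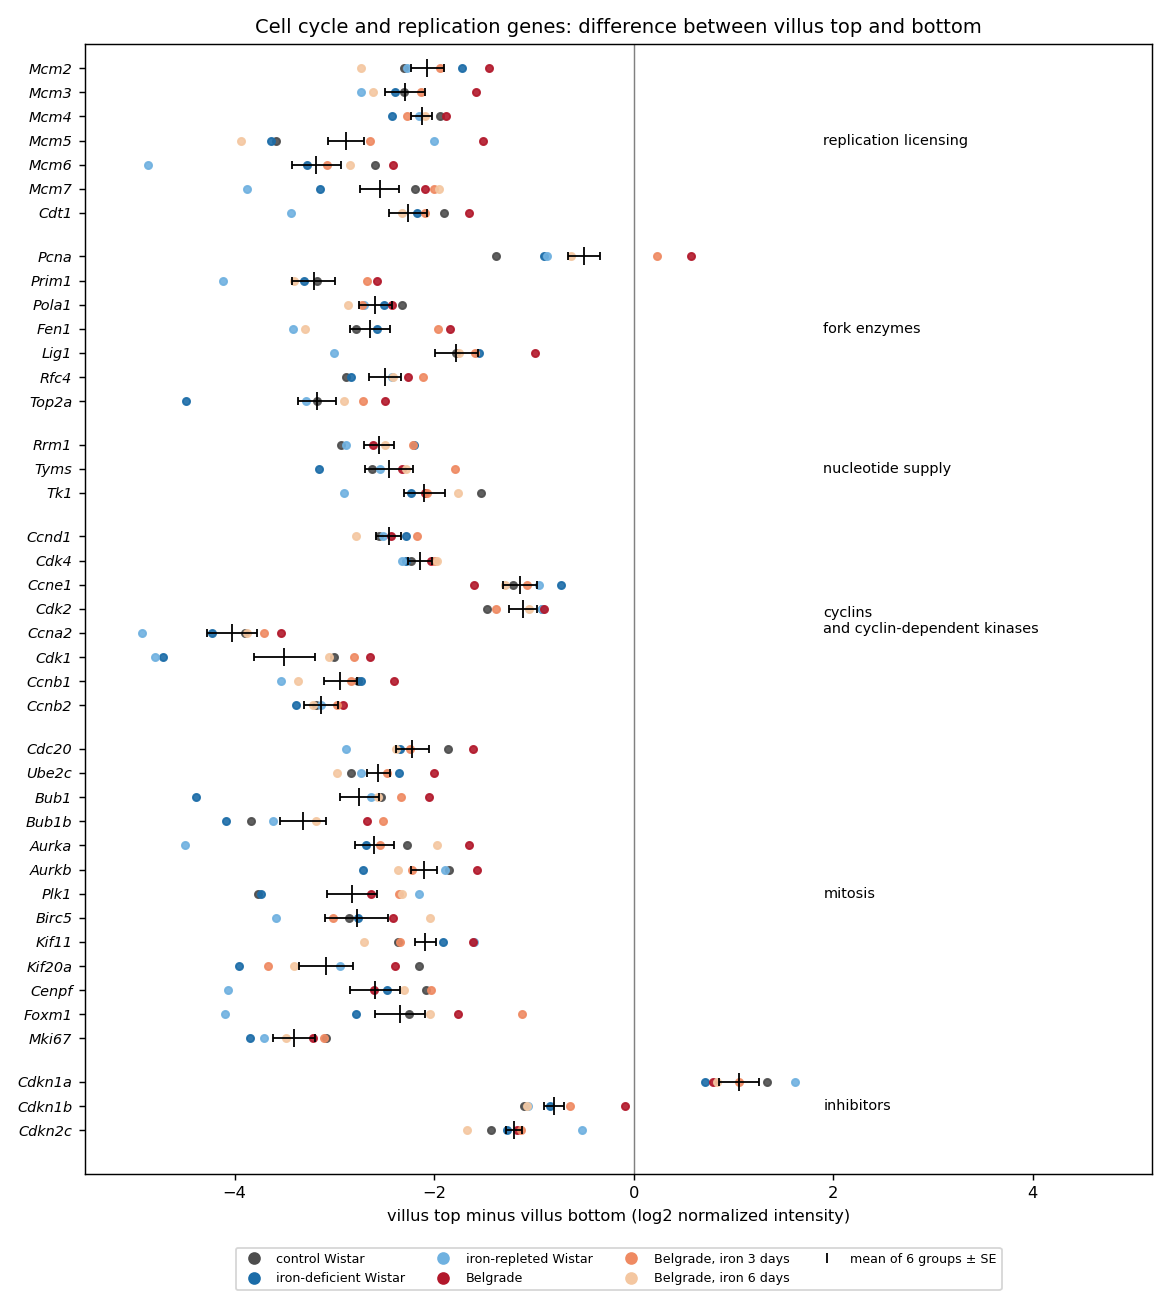
Difference between villus top and bottom for each of the 41 genes, in log2 normalized intensity, with 1 coloured point for each of the 6 groups and a black mark with its SE for the mean of the groups. Points left of 0 are lower at the top. Licensing, nucleotide and mitotic genes lie left of -2 on average, Pcna lies near 0 with 2 groups above it, and Cdkn1a alone lies to the right in all groups.

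The 7 licensing genes fell together, with a median of -2.29 and a range from -3.18 (Mcm6) to -2.07 (Mcm2). Mcm2, a subunit of the replicative helicase, ran from 8.63 to 11.34 with a median of 10.30 at the top, and from 11.49 to 12.67 with a median of 12.33 at the bottom. No top sample reached the lowest bottom sample, and the difference was -2.07 ± 0.17 (SE, 95% interval -2.43 to -1.71, adjusted p = 1.47e-08, n = 20). Mcm4, another subunit, ran from 8.87 to 10.94 with a median of 9.99 at the top, and from 11.69 to 12.77 with a median of 12.18 at the bottom. Its difference was -2.13 ± 0.11 (SE, adjusted p = 5.92e-11). Mcm5 was less even at the top, from 7.26 to 11.43, and its highest top sample, iron-repleted rat 3, overlapped the bottom samples. Mcm3 (-2.29), Mcm7 (-2.55) and Cdt1, a loader of the helicase (-2.26), fell by similar amounts.

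By sample, the top level of Mcm2 was 9.66, 10.10 and 10.43 in the control samples, 10.64, 10.30, 10.30 and 10.94 in the iron-deficient ones and 10.37, 10.81 and 9.07 in the iron-repleted ones. It was 9.28, 11.34 and 10.59 in the unfed Belgrade samples, 9.89, 10.48, 10.09 and 10.58 after 3 days of iron and 9.97, 10.15 and 8.63 after 6 days. Unfed Belgrade rat 3 had the highest top level of all, and 6-day rat 3 the lowest. At the bottom Mcm2 was 12.05, 12.51 and 12.54 in the control samples, 12.34, 12.35, 11.79 and 12.58 in the iron-deficient ones and 12.24, 12.15 and 12.67 in the iron-repleted ones. In Belgrade bottoms it was 11.66, 12.06 and 11.83 in the unfed Belgrade samples, 12.33, 11.49, 12.59 and 12.40 after 3 days of iron and 12.42, 11.998 and 12.55 after 6 days. The bottom levels lay between 11.49 and 12.67 in all groups, and the unfed Belgrade bottoms lay below all iron-repleted ones.

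The 7 fork genes were all lower at the top, with a median of -2.59, and Pcna stood apart from the other 6. Prim1, a primase subunit, fell by 3.21 and Top2a, the topoisomerase that untangles replicated DNA, by 3.18. Top2a ran from 7.61 to 11.67 with a median of 10.61 at the top, and from 13.10 to 14.11 with a median of 13.51 at the bottom, without overlap (SE 0.19, adjusted p = 4.19e-10). Fen1, a flap nuclease (-2.65), Pola1, a polymerase subunit (-2.59), Rfc4, a clamp loader subunit (-2.49), and Lig1, a DNA ligase (-1.78), lay between these and Pcna. Pola1 was under the 40th percentile of its array on 12 of 22 top arrays and Fen1 on 11, so the sizes of their falls depend on the pseudocount. A second probe set of Top2a gave -2.96 and a second one of Lig1 -1.69, close to the brighter ones.

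Pcna, the sliding clamp, had a top level of 13.92, 14.82 and 14.01 in the control samples, 14.02, 15.21, 16.22 and 13.54 in the iron-deficient ones and 13.89, 15.88 and 14.64 in the iron-repleted ones. Among Belgrade rats the top level was 15.93, 16.34 and 16.58 in the unfed Belgrade samples, 15.20, 16.27, 16.01 and 15.95 after 3 days of iron and 15.50, 14.69 and 14.64 after 6 days. The bottom level hardly varied, from 15.49 to 15.82 over all 20 samples. In all 3 control samples the top was below the bottom, and in all 3 unfed Belgrade samples it was above. Within groups the difference was -1.38 in control rats (adjusted p = 0.0212), the only group in which it was called, and 0.58 in unfed Belgrade rats (adjusted p = 0.412). The difference between those groups was 1.95 ± 0.58 (SE, 95% interval 0.72 to 3.19) and did not pass (adjusted p = 0.687). Over all groups 12 samples had a lower top and 8 a higher one, and the mean fall was 0.49 ± 0.16 (SE, 95% interval -0.84 to -0.15, adjusted p = 0.015). That call was lost with median centring (-0.17, adjusted p = 0.435) and with the values as deposited (-0.28, adjusted p = 0.144).

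The 3 nucleotide genes fell with a median of -2.45. Rrm1, the large subunit of ribonucleotide reductase, ran from 9.36 to 11.46 with a median of 10.80 at the top, and from 12.60 to 13.74 with a median of 13.12 at the bottom. Its difference was -2.56 ± 0.15 (SE, adjusted p = 2.99e-10), and the ranges were apart. Tyms, thymidylate synthase (-2.45), was dim at the top, under the 40th percentile of its array on 16 of 22 top arrays. Tk1, thymidine kinase, fell by 2.10, and its other probe sets gave -2.47 and -1.56. The promoter of Rrm1 printed above holds an E2F word, a CHR word and a CCAAT box.

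The 8 cyclins and cyclin-dependent kinases had a median of -2.70 and the widest range of the roles, from -4.03 to -1.11. Ccna2, the cyclin of the S and G2 phases, ran from 6.52 to 11.02 with a median of 9.65 at the top, and from 12.49 to 14.37 with a median of 13.63 at the bottom, which is 16.3 times lower at the top (difference -4.03 ± 0.25, SE, adjusted p = 5.71e-10). Only 0.0339% of all tested probe sets had a lower value. Ccnb2, a mitotic cyclin, ran from 8.72 to 11.57 with a median of 10.29 at the top, and from 13.01 to 13.83 with a median of 13.53 at the bottom (difference -3.13 ± 0.17, SE, adjusted p = 1.66e-10). Cdk4, the kinase that works with D-type cyclins, ran from 10.62 to 11.90 with a median of 11.46 at the top, and from 12.93 to 14.15 with a median of 13.41 at the bottom (difference -2.14 ± 0.12, SE, adjusted p = 1.39e-10). The smallest falls of this role were in Cdk2 (-1.11) and its partner Ccne1 (-1.14), both active at the entry into S phase. For both of them the top and bottom samples overlapped.

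The top level of Cdk1, the mitotic kinase, was 10.07, 9.40 and 10.55 in the control samples, 6.96, 5.89, 9.88 and 9.83 in the iron-deficient ones and 10.81, 6.84 and 6.57 in the iron-repleted ones. In Belgrade rats it was 8.96, 11.24 and 9.78 in the unfed Belgrade samples, 11.19, 9.22, 9.92 and 9.89 after 3 days of iron and 9.14, 9.62 and 10.26 after 6 days. Iron-deficient rats 1 and 2 and iron-repleted rats 2 and 3 were low, under 7, while the other 16 samples lay at 8.96 or above. At the bottom Cdk1 was 12.93, 13.12 and 12.97 in the control samples, 13.01, 12.61, 12.91 and 12.89 in the iron-deficient ones and 12.75, 12.61 and 13.25 in the iron-repleted ones. The Belgrade bottoms were at 12.42, 12.57 and 12.91 in the unfed Belgrade samples, 13.13, 12.21, 13.14 and 12.95 after 3 days of iron and 12.73, 12.52 and 12.93 after 6 days. All 20 bottom samples were above all top samples. The difference was -3.50 ± 0.31 (SE, 95% interval -4.16 to -2.85, adjusted p = 4.15e-08).

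Ccnb1, the cyclin partner of Cdk1 in mitosis, had top levels of 9.83, 10.12 and 11.09 in the control samples, 9.65, 10.24, 10.17 and 10.43 in the iron-deficient ones and 9.32, 9.31 and 10.38 in the iron-repleted ones. Its levels in Belgrade tops were 9.50, 11.39 and 9.10 in the unfed Belgrade samples, 10.84, 8.98, 10.18 and 10.25 after 3 days of iron and 9.43, 10.38 and 8.79 after 6 days. The highest top sample was again unfed Belgrade rat 3. At the bottom Ccnb1 was 13.14, 13.15 and 13.06 in the control samples, 12.62, 12.34, 12.75 and 13.71 in the iron-deficient ones and 13.26, 12.90 and 13.45 in the iron-repleted ones. The Belgrade bottoms were at 12.47, 12.24 and 12.50 in the unfed Belgrade samples, 13.15, 12.43, 13.15 and 12.88 after 3 days of iron and 12.94, 12.90 and 12.84 after 6 days. No top sample reached a bottom sample. The difference was -2.94 ± 0.17 (SE, adjusted p = 2.21e-10), and a second probe set fell by 3.57.

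Ccnd1, the D-type cyclin that responds to growth signals, was at 12.23, 12.40 and 12.36 in the control samples, 12.61, 12.15, 11.70 and 11.57 in the iron-deficient ones and 12.50, 11.25 and 11.99 in the iron-repleted ones at the top. Belgrade tops were at 11.56, 12.83 and 11.73 in the unfed Belgrade samples, 12.47, 12.96, 11.66 and 11.74 after 3 days of iron and 11.59, 11.55 and 11.56 after 6 days. The 3 tops of 6-day rats lay close together and below all control tops. At the bottom Ccnd1 was 15.03, 14.67 and 14.96 in the control samples, 14.64, 14.31, 13.80 and 14.40 in the iron-deficient ones and 14.99, 14.40 and 13.90 in the iron-repleted ones. The Belgrade bottoms were at 14.64, 14.62 and 14.16 in the unfed Belgrade samples, 14.57, 14.22, 14.65 and 14.09 after 3 days of iron and 14.04, 14.55 and 14.45 after 6 days. Every bottom sample was above every top sample. The difference was -2.46 ± 0.12 (SE, adjusted p = 5.82e-11), and the other probe sets fell by 1.87 and by 1.70.

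All 13 mitotic genes fell, by 2.09 to 3.41 with a median of -2.60. Ube2c, a ubiquitin-conjugating enzyme of the anaphase-promoting complex, had the lowest adjusted p of all members and ran from 9.31 to 11.29 with a median of 10.37 at the top, and from 12.31 to 13.48 with a median of 13.11 at the bottom (difference -2.56 ± 0.11, SE, adjusted p = 1.84e-11). Kif11, a spindle motor, ran from 9.09 to 10.84 with a median of 10.14 at the top, and from 11.60 to 12.48 with a median of 12.20 at the bottom (difference -2.09 ± 0.10, SE, adjusted p = 4.76e-11). Aurkb, a kinase of the chromosomal passenger complex, ran from 8.62 to 10.73 with a median of 9.77 at the top, and from 11.28 to 12.33 with a median of 11.93 at the bottom (difference -2.10 ± 0.13, SE, adjusted p = 6.07e-10). In these 3 genes no top sample overlapped a bottom sample. The checkpoint kinases Bub1b (-3.32) and Bub1 (-2.75), the motor Kif20a (-3.09), the kinases Plk1 (-2.82) and Aurka (-2.60), the passenger protein Birc5 (-2.78), the kinetochore protein Cenpf (-2.59), the transcription factor Foxm1 (-2.34) and the activator Cdc20 (-2.22) made up the rest with Mki67. For Cdc20 a second probe set fell by 3.03, while 3 dimmer ones (-0.59, -0.30 and -0.07) did not pass. Bub1b was under the 40th percentile on 21 of 22 top arrays, Foxm1 on 16 and Kif20a on 14, so for these the top level, and with it the size of the fall, depends on the pseudocount.

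Mki67, which encodes the proliferation marker Ki-67, was at 11.32, 11.13 and 11.72 in the control samples, 9.74, 9.53, 11.86 and 10.39 in the iron-deficient ones and 11.43, 9.70 and 10.20 in the iron-repleted ones at the top. In the Belgrade tops it was 10.12, 12.51 and 9.78 in the unfed Belgrade samples, 12.16, 11.34, 10.53 and 11.52 after 3 days of iron and 10.81, 11.34 and 10.76 after 6 days. Iron-deficient rats 1 and 2 and iron-repleted rat 2 had the lowest tops, with unfed Belgrade rat 4 close to them, and unfed Belgrade rat 3 the highest. At the bottom Mki67 was 14.49, 14.45 and 14.50 in the control samples, 14.59, 14.06, 14.09 and 14.16 in the iron-deficient ones and 14.01, 13.94 and 14.49 in the iron-repleted ones. The Belgrade bottoms were at 13.69, 14.21 and 14.16 in the unfed Belgrade samples, 14.51, 14.29, 14.71 and 14.44 after 3 days of iron and 14.29, 14.15 and 14.93 after 6 days. The bottom samples lay between 13.69 and 14.93 and varied less than the top samples. The top was 10.6 times lower (difference -3.41 ± 0.21, SE, 95% interval -3.85 to -2.96, adjusted p = 5.37e-10).

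Of the 3 inhibitors Cdkn1a rose toward the top, while Cdkn1b and Cdkn2c fell, by less than most other members. Cdkn1a, the inhibitor p21, had top levels of 11.39, 12.46 and 11.32 in the control samples, 11.68, 11.91, 11.02 and 11.78 in the iron-deficient ones and 11.43, 11.45 and 14.48 in the iron-repleted ones. Its Belgrade tops were at 11.86, 11.34 and 11.16 in the unfed Belgrade samples, 12.27, 11.18, 12.49 and 11.95 after 3 days of iron and 10.94, 11.62 and 11.82 after 6 days. Iron-repleted rat 3 stood far above the others, and the rest of the top samples lay between 10.94 and 12.49. At the bottom Cdkn1a was 10.29, 10.48 and 10.39 in the control samples, 10.80, 10.85, 11.17 and 10.70 in the iron-deficient ones and 10.93, 11.21 and 10.37 in the iron-repleted ones. The Belgrade bottoms were at 10.76, 10.25 and 10.97 in the unfed Belgrade samples, 11.21, 10.75, 11.23 and 10.50 after 3 days of iron and 10.16, 10.61 and 11.12 after 6 days. The top was higher in 19 of 20 samples, and the rise over all groups was 1.06 ± 0.20 (SE, 95% interval 0.63 to 1.49, adjusted p = 2.71e-04). Of single groups only the iron-repleted one passed (1.61, adjusted p = 0.0248, beside 14.2% of all probe sets). Without iron-repleted rat 3 it did not pass, while the control (1.34, adjusted p = 0.0018), iron-deficient (0.71, adjusted p = 0.032), 3-day (1.05, adjusted p = 0.00357) and 6-day (0.83, adjusted p = 0.0374) groups did. Without iron-repleted rat 2 the control group passed (adjusted p = 0.0494). A second, less bright probe set of Cdkn1a rose by 2.82.

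Cdkn1b, the inhibitor p27, was at 13.55, 13.36 and 13.67 in the control samples, 14.13, 13.74, 13.82 and 13.05 in the iron-deficient ones and 13.36, 14.06 and 13.33 in the iron-repleted ones at the top. In the tops of Belgrade rats it was 13.82, 14.16 and 14.29 in the unfed Belgrade samples, 13.48, 14.38, 13.67 and 14.38 after 3 days of iron and 13.56, 13.44 and 13.52 after 6 days. In unfed Belgrade rats the top and bottom of Cdkn1b were nearly level, with a difference of -0.09 (95% interval -0.65 to 0.47). At the bottom Cdkn1b was 14.20, 14.66 and 15.00 in the control samples, 14.65, 14.46, 14.52 and 14.46 in the iron-deficient ones and 14.47, 14.35 and 15.11 in the iron-repleted ones. Bottoms of Belgrade rats were at 14.00, 14.28 and 14.26 in the unfed Belgrade samples, 14.65, 14.46, 14.62 and 14.74 after 3 days of iron and 14.55, 14.43 and 14.77 after 6 days. The top was lower in 19 of 20 samples. Cdkn1b fell by 0.80 (SE 0.10, adjusted p = 4.22e-06), and Cdkn2c, the inhibitor p18, by 1.20 (SE 0.08, adjusted p = 1.94e-09). The dimmer probe sets of both did not pass, with 0.28 for Cdkn1b (adjusted p = 0.172) and -0.08 for Cdkn2c (adjusted p = 0.772).

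**Figure D2:**
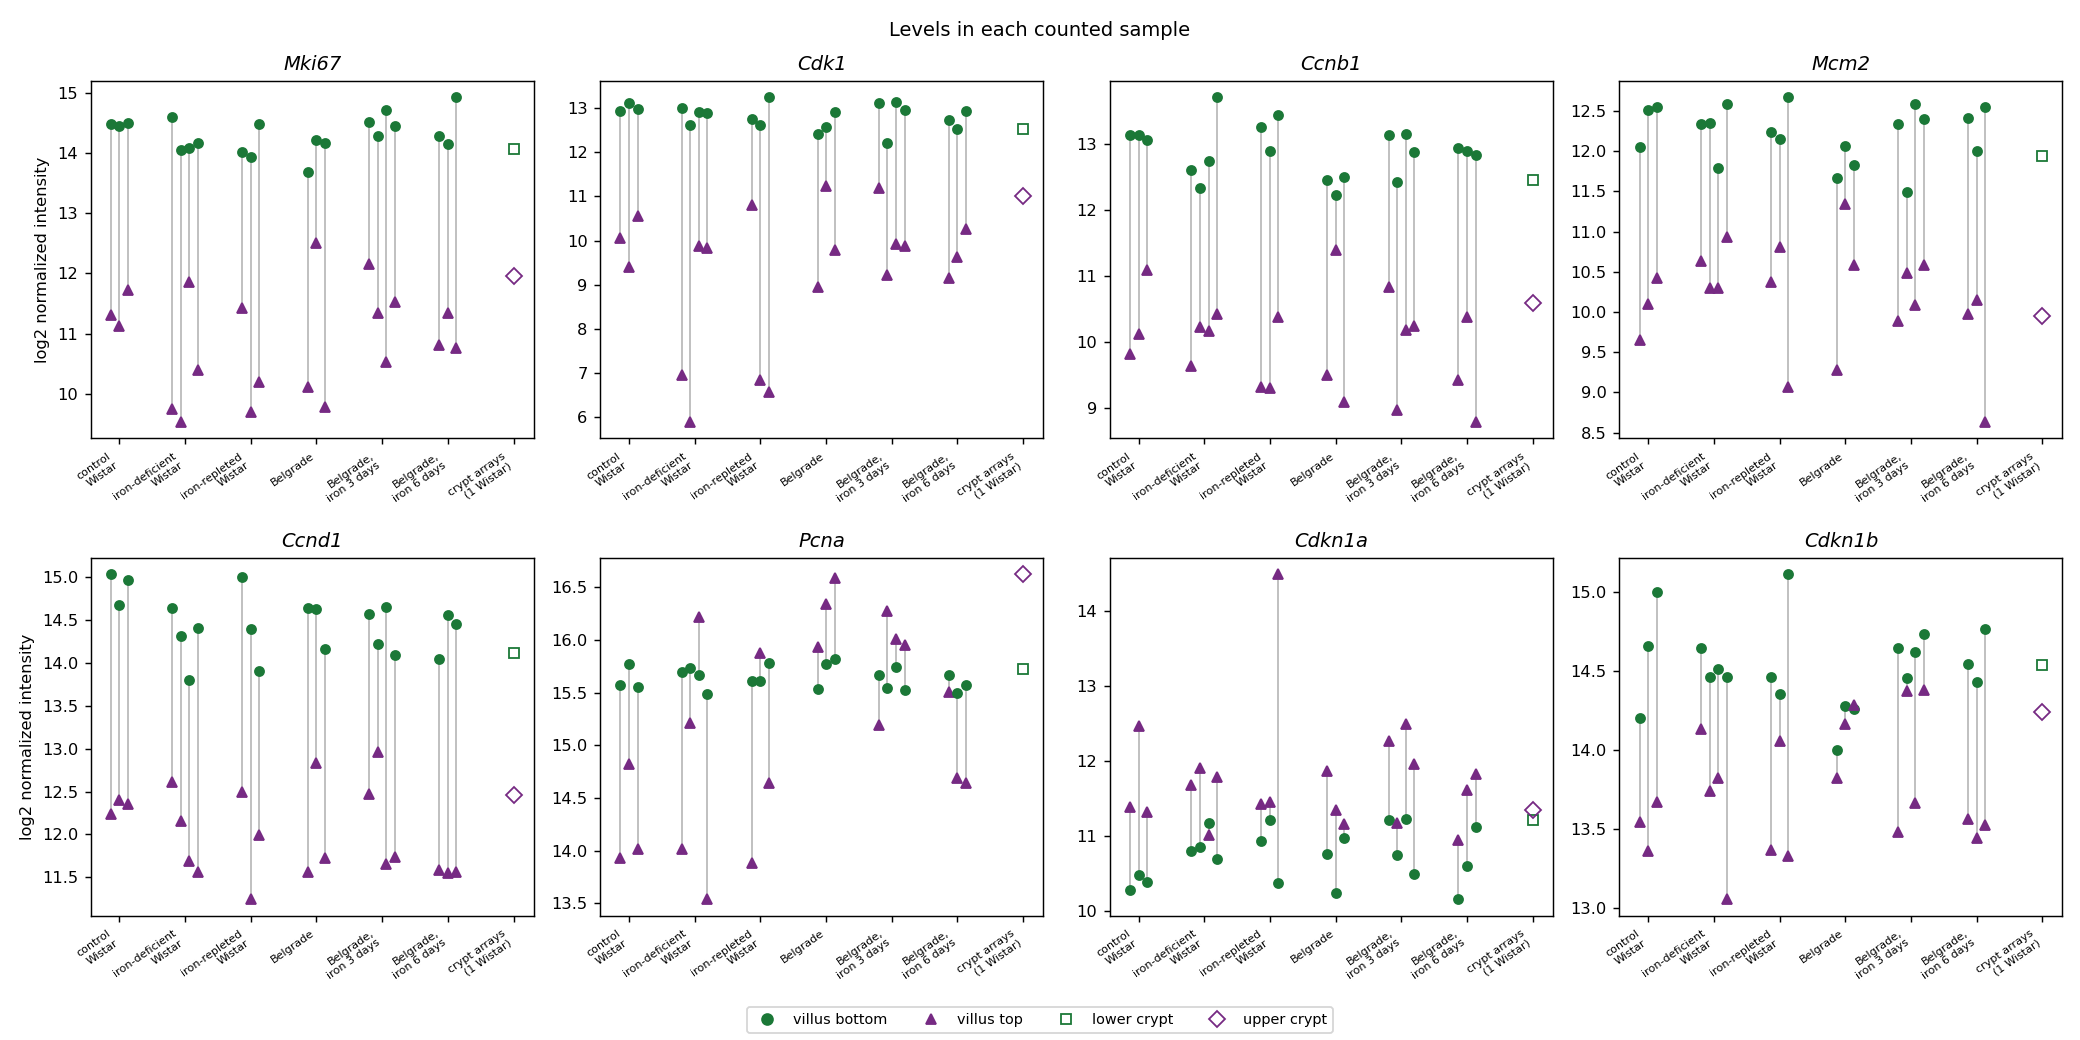
Level of 8 members in log2 normalized intensity for each counted sample by group, with the villus bottom as a green circle joined to the top of the same rat as a purple triangle, and the 2 crypt arrays at the right. The vertical axes differ between panels. Mki67, Cdk1, Ccnb1, Mcm2 and Ccnd1 lie lower at the top in every sample, the bottom of Pcna stays between 15.49 and 15.82 while its top varies, and Cdkn1a lies higher at the top in 19 of 20.

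Other genes of the same processes, outside the 41, were counted from lists of 42 replication, 60 mitosis and 34 cycle control symbols. All 38 replication genes with a probe set were lower at the top, with a median of -1.92, among them Dut, which clears dUTP (-2.89), Pold2, a polymerase subunit (-2.37), Dscc1, of an alternative clamp loader (-2.59), and Rpa3, of the single-strand binding complex (-2.03). All 50 mitosis genes were lower too (median -2.49), among them Ect2, a factor of cytokinesis (-3.59), Cks2, a subunit bound to cyclin-dependent kinases (-2.96), the kinetochore protein Nuf2 (-2.50) and the histone variant H2az1 (-1.88). Of 31 tested cycle control genes 17 were lower, 7 higher and 7 did not pass, beside 28.8% lower and 25.5% higher over all probe sets. Ccne2 (-2.29), Ccnd2 (-1.93) and Tfdp1, a partner of the E2F factors (-1.90), were lower, while Ccng2, a cyclin linked with cycle arrest, was higher by 2.62.

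Markers of cell types also differed along the axis. Paneth cell and crypt markers were mostly lower at the top, like the members, and enterocyte markers mostly higher. Of 6 tested Paneth cell markers 4 were lower at the top (median -2.21), led by the defensin Defa24 (-3.77), Lyz2 (-1.33), Mmp7 (-3.08) and Pla2g2a (-4.83). Their summed intensity, in units of 1000, ran from 145 to 437 on bottom arrays and from 33.2 to 186 on top arrays. Of 10 crypt stem and transit cell markers 8 were lower (median -1.72), among them Smoc2 (-3.88), Ephb3 (-2.13), Slc12a2 (-1.89) and Cd44 (-1.56), with sums of 69.0 to 168 at the bottom and 21.2 to 42.3 at the top. Of 10 enterocyte markers 9 were higher at the top (median 2.12), with Apoa4 (4.66), Apob (2.78), Apoa1 (2.48) and Ada (2.00), and sums of 62.2 to 514 at the bottom and 906 to 1835 at the top. No marker of any list was listed at 0 on any array. The part of these cell types in the fall of the members was not tested.

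Other lists were less uniform. Over all tested probe sets 28.8% were called lower and 25.5% higher. The counts of lower exocrine pancreas and lymphocyte markers and of higher erythroid markers lay near these shares. Of 14 lymphocyte markers 8 were higher at the top, led by Gzmb (3.72), Ccl5 (2.47) and Cd74 (1.26), and 4 were lower, Cd3g (-1.40) among them. Of 16 smooth muscle and stroma markers 9 were lower and 1 higher (median -0.75), with Actg2 (-2.20), Myh11 (-1.70), Dcn (-1.43) and Mylk (-1.05) lower. Exocrine pancreas markers were lower in 4 of 12, Cela1 (-2.57), Amy2a3 (-1.84), Cel (-1.49) and Pnlip (-1.24), and their sum at the bottom ran from 6.05 to 782. Of 4 erythroid markers 1, Slc4a1, was higher (0.99), and the other three (Alas2, Hemgn and Hbb) did not pass. The Brunner gland marker Tff2 was lower (-1.91).

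**Figure D3:**
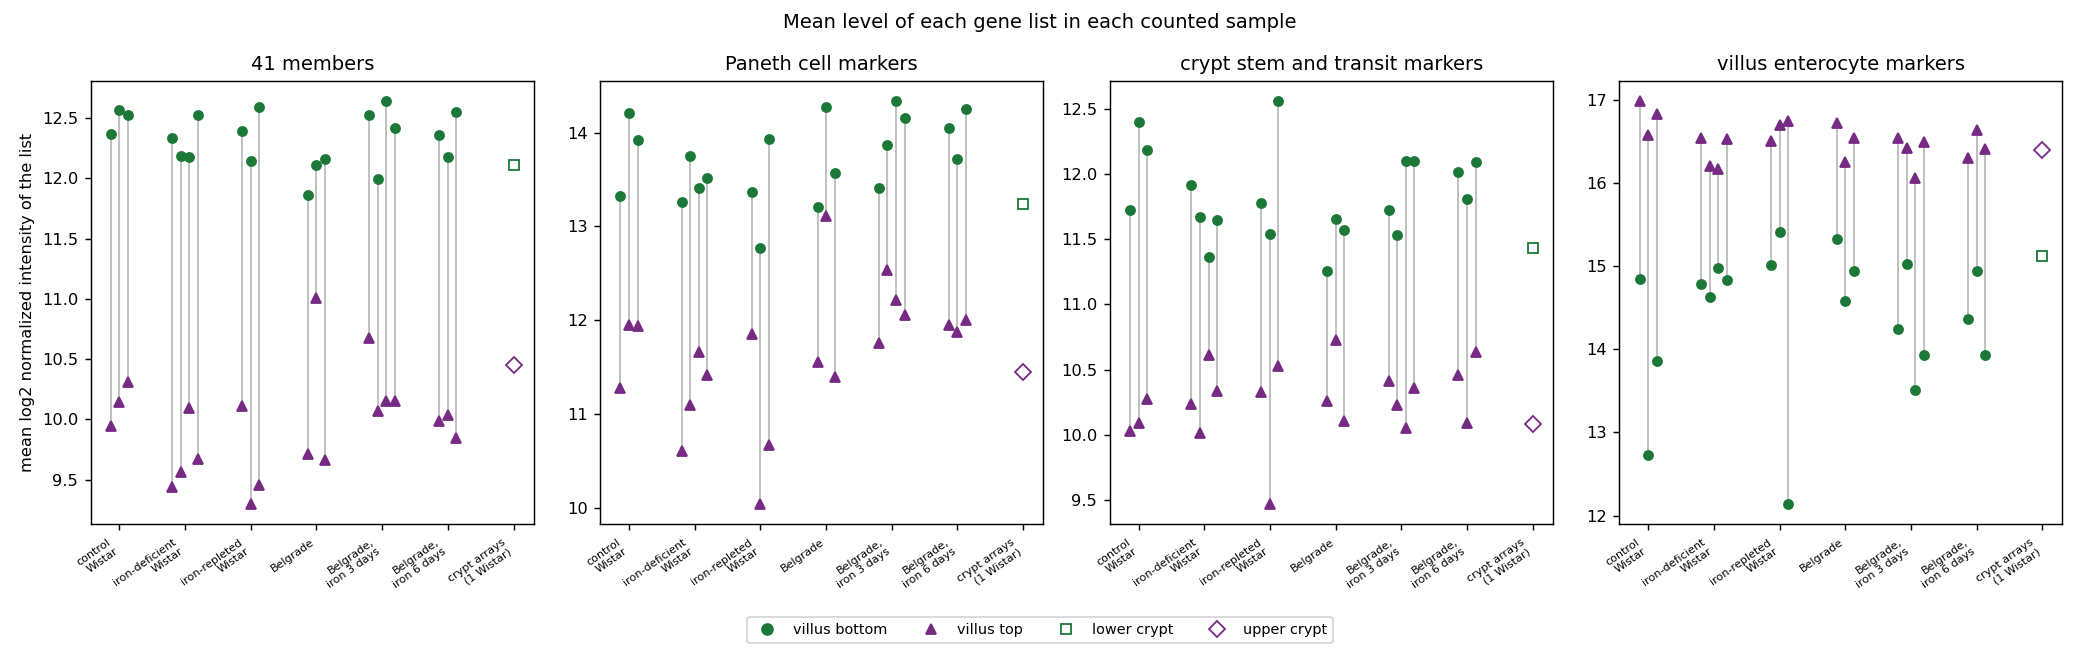
Mean log2 normalized intensity of the 41 members, of Paneth cell markers, of crypt stem and transit cell markers and of villus enterocyte markers for each counted sample by group, with bottoms as green circles, tops as purple triangles and the 2 crypt arrays at the right. The first 3 lists lie lower at the top and enterocyte markers lie higher. The upper crypt lies among the villus tops for enterocyte markers (16.40).

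The fall toward the top was called in every group for most members. It was called lower in 39 of 41 in control rats (12.6% of all probe sets), 38 in iron-deficient rats (15.9%), 36 in iron-repleted rats (18.3%), 34 in unfed Belgrade rats (9.21%), 37 after 3 days of iron (13.9%) and 38 after 6 days (12.3%). The group medians ran from -2.88 in iron-repleted to -2.05 in unfed Belgrade rats. The members that did not pass in a group were mostly those with a small or uneven fall. Pcna was not called in any group but the controls, Ccne1 did not pass in the 3 Wistar groups, and Cdk2, Lig1, Birc5, Foxm1, Cdkn1b and Cdkn2c did not pass in 1 or 2 groups each. The count in unfed Belgrade rats was 19 without the averaged sample of rats 1 and 2, 37 without rat 3 and 16 without rat 4.

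When the fall itself was compared between groups, 0 of 41 members passed in any of the 8 comparisons of groups, beside at most 0.00754% of all probe sets. In simulated data the fit called only 27% of changes of 2 units between iron-deficient and control rats. A count of 0 therefore does not show that the falls were equal. At an unadjusted p under 0.05 the counts were 1 member for iron-deficient against control rats (9.04% of all probe sets), 4 for iron-repleted against iron-deficient (10.7%), 7 for iron-repleted against control (9.99%), 3 for unfed Belgrade against control (6.45%) and 6 for unfed Belgrade against iron-deficient rats (4.58%). Against unfed Belgrade rats they were 0 after 3 days of iron (2.54%) and 4 after 6 days (3.73%), and 0 between 6 and 3 days (3.84%). Mcm5 had the lowest unadjusted p, in 6-day against unfed Belgrade rats, with a fall that was larger by 2.43 (95% interval -3.83 to -1.03, adjusted p = 1.00). Its top levels were 8.80, 7.57 and 8.00 in 6-day and 9.63, 10.84 and 9.71 in unfed Belgrade samples, without overlap. Bub1, a checkpoint kinase, had a fall that was smaller by 2.34 in unfed Belgrade than in iron-deficient rats (95% interval 0.93 to 3.74, adjusted p = 1.00).

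Levels were then compared between diets and genotypes, over the mean of top and bottom and for each segment on its own. In none of the 24 comparisons did a member pass. For the mean of both segments, 0.404% of all probe sets passed for iron-deficient against control rats, 0.0679% for iron-repleted against control and 0.0113% for unfed Belgrade against control, and 0 in the other five. At the top 0.977%, 0.207% and 0.0905% passed in these same comparisons, and at the bottom 1 probe set (0.00377%) at most.

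Iron-deficient rats were compared with controls for the effect of low iron with bleeding. The members had a median of -0.31 over both segments, 33 of 41 below 0, beside -0.02 over all probe sets, and 6 members, all lower, had an unadjusted p under 0.05, where 14.1% of all probe sets did. At the top 4 members did (12.5%) and at the bottom 6 (13%), all lower. With 1 sample of either group left out, the median over both segments ran from -0.44 (without iron-deficient rat 4, 8 members at such a p) to -0.23 (without iron-deficient rat 1), and the count was 2 without control rat 4 and 3 without iron-deficient rat 2. At the bottom the count was 2 with median centring. The top level of Top2a was 10.75, 10.98 and 10.85 in the control samples, 9.45, 7.61, 10.70 and 7.87 in the iron-deficient ones and 10.62, 9.31 and 10.47 in the iron-repleted ones. Its bottom level was 14.06, 14.05 and 13.99 in the control samples, 13.49, 13.34, 13.32 and 13.46 in the iron-deficient ones and 13.41, 13.10 and 13.76 in the iron-repleted ones. At the bottom all 4 iron-deficient samples lay below all control samples, and at the top they did so too, though iron-deficient rat 3 lay close to the controls. Over both segments Top2a came closest to passing, with a difference of -1.29 ± 0.29 (SE, 95% interval -1.90 to -0.69, adjusted p = 0.052). Top2a passed with the larger pseudocount (-1.12, adjusted p = 0.048), with the values as deposited (-1.27, adjusted p = 0.0499) and with all rats counted separately (-1.28, adjusted p = 0.0126). Over both segments it passed also without iron-repleted rat 2 (adjusted p = 0.0386) or rat 3 (adjusted p = 0.0268), without the averaged unfed Belgrade sample (adjusted p = 0.0488) or rat 4 (adjusted p = 0.0418), and without 3-day rat 4 (adjusted p = 0.0443), which change only the shared estimate of spread. It passed at the top without iron-deficient rat 3 (-2.55, adjusted p = 0.0193). Mki67 differed by -0.63 (95% interval -1.25 to -0.01, adjusted p = 0.344) and Cdk4 by -0.56 (adjusted p = 0.159).

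Marker levels differed between the same groups. At the top lymphocyte markers averaged 9.94 to 10.12 in iron-deficient and 10.82 to 11.19 in control samples, and 13 of 14 were below 0 (median -0.73), with sums of 84.6 to 117 and 128 to 174. Erythroid markers averaged 10.77 to 12.19 and 10.13 to 10.45, and 1 of 4 was below 0 (median 1.71), with sums of 38.3 to 154 and 13.8 to 17.5. Enterocyte markers averaged 16.17 to 16.54 and 16.58 to 16.98, and 9 of 10 were below 0 (median -0.37). The means of these 3 lists did not overlap between the groups at the top. The sums of enterocyte markers did, with 906 to 1302 on iron-deficient and 1065 to 1410 on control arrays. The share of all probe sets without overlap between these groups was not counted. At the bottom all 16 stroma markers were below 0 (median -1.37), and 9 of 10 enterocyte markers were above 0 (median 1.03). The means of both lists overlapped there. Stroma markers averaged 12.73 to 13.19 in iron-deficient and 13.11 to 15.49 in control samples, and enterocyte markers 14.63 to 14.98 and 12.73 to 14.85. Control rat 3 had the highest stroma mean and the lowest enterocyte mean of these bottoms and enters these medians. The part of these markers in the member levels was not tested.

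The effect of 3 days of iron after deficiency was read from iron-repleted against iron-deficient rats. The median of the members was 0.01, with 20 below 0, and 7 had an unadjusted p under 0.05 (12.8% of all probe sets), 4 lower and 3 higher. The counts were 9 at the top (12.5%), 4 lower and 5 higher, and 2 at the bottom (12.4%), Mcm5 and Mcm3, both higher. Without iron-repleted rat 3 the counts were 3 over both segments, 4 at the top and 0 at the bottom. The median over both segments had no stable sign, from -0.12 without iron-repleted rat 1 to 0.14 without rat 2, and it was -0.19 with median centring, where all probe sets had -0.20. The top level of Aurka, a kinase of the spindle poles, was 9.52, 9.58 and 8.84 in the control samples, 8.68, 9.34, 9.58 and 8.87 in the iron-deficient ones and 6.10, 8.52 and 6.24 in the iron-repleted ones. Iron-repleted rats 1 and 3 were low, while rat 2 lay just below the other Wistar samples. The top level of Mcm5 was 8.16, 9.92 and 7.26 in the control samples, 7.53, 7.86, 7.93 and 9.52 in the iron-deficient ones and 10.14, 9.92 and 11.43 in the iron-repleted ones. All 3 iron-repleted samples of Mcm5 lay above all 4 iron-deficient ones. Over both segments Aurka was at -1.26 ± 0.27 (SE, adjusted p = 0.151) and Mcm5 at 1.47 ± 0.43 (SE, adjusted p = 0.198). Without iron-deficient rat 4 both passed (-1.24, adjusted p = 0.0343, and 1.75, adjusted p = 0.0438), and without iron-repleted rat 2 Aurka did (-1.58, adjusted p = 0.0382, and -2.95 at the top, adjusted p = 0.0241). The Aurka levels of 6.10 and 6.24 and the Mcm5 levels of 7.53 to 7.93 were under the 40th percentile (8.99 after normalization). There the size of a difference depends on the pseudocount.

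Against controls, iron-repleted rats gave a median of -0.25, with 9 members at an unadjusted p under 0.05 (15.1% of all probe sets), 8 lower and 1 higher. At the top 7 did (15.4%) and at the bottom 1 (10.5%), which was Top2a (-0.61). The median over both segments was -0.44 without iron-repleted rat 1, -0.16 without rat 2 and -0.30 without rat 3, and the counts were 14, 7 and 6. Without control rat 4 the count was 4. At the top the count was 14 without iron-repleted rat 1 and 3 without rat 3, and at the bottom it was 4 without either. Aurka was at -1.24 ± 0.29 (SE, adjusted p = 0.077) over both segments and at -2.36 ± 0.60 (SE, adjusted p = 0.077) at the top. At the top it passed with median centring (-2.37, adjusted p = 0.0407), with all rats counted separately (-2.41, adjusted p = 0.0218) and without iron-repleted rat 2 (-3.14, adjusted p = 0.022). Without iron-repleted rat 1 it was Mcm6 (-3.09, adjusted p = 0.0391) and Mcm7 (-2.65, adjusted p = 0.0244) that passed at the top, and without rat 3 it was Cdt1 (-2.58, adjusted p = 0.0353). Mcm7 passed over both segments without rat 1 (-1.36, adjusted p = 0.0498). These calls involve top levels under the 40th percentile (8.99 after normalization), where the size of a difference depends on the pseudocount. In iron-repleted rats 2 and 3 Mcm6 was at 8.21 and 6.22 and Mcm7 at 8.36 and 8.73. In rats 1 and 2 Cdt1 was at 8.38 and 6.66, and in rats 1 and 3 Aurka was at 6.10 and 6.24. Cenpf differed by -1.27 (adjusted p = 0.118), Lig1 by -0.94 (adjusted p = 0.129) and Mcm7 by -0.94 (adjusted p = 0.177). The 2 comparisons of iron-repleted rats share those samples, and the comparisons of iron-deficient, iron-repleted and unfed Belgrade rats with controls share the control samples.

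Unfed Belgrade rats were compared with controls for the effect of the genotype. At the bottom 39 of 41 members were below 0, with a median of -0.44 beside -0.02 over all probe sets. An unadjusted p under 0.05 was found in 13 members, all lower, and in 6.51% of all probe sets, but 0 passed (lowest adjusted p = 0.747). The bottom level of Plk1, a mitotic kinase, was 12.52, 12.51 and 12.43 in control and 11.78, 11.51 and 11.56 in unfed Belgrade samples. Those groups did not overlap for Plk1. Plk1 differed by -0.87 ± 0.21 (SE, 95% interval -1.30 to -0.43), Top2a by -0.80 ± 0.20 (SE, 95% interval -1.21 to -0.39), Ube2c by -0.77, Mcm3 by -0.75, Ccnb1 by -0.71, Prim1 by -0.58 and Mki67 by -0.46. The median was -0.25 with median centring, where all probe sets had 0.08, and from -0.54 to -0.31 when a control or an unfed Belgrade sample was left out, with 9 to 17 members at an unadjusted p under 0.05. That count was 7 with median centring and 22 with all rats counted separately. Over both segments the median was -0.28, with 34 members below 0 and 2 at an unadjusted p under 0.05, beside 6% of all probe sets. That median was -0.13 without the averaged sample of unfed Belgrade rats 1 and 2, -0.52 without rat 3, where 9 members had such a p, -0.18 without rat 4 and -0.18 with median centring.

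Marker levels were also compared between these bottoms. Stroma markers were below 0 for Belgrade minus control bottoms in 16 of 16, with a median of -0.98, and their sum was 194 to 886 in controls and 156 to 300 in unfed Belgrade rats. Enterocyte markers were above 0 in 10 of 10 (median 1.04), with sums of 123 to 339 and 349 to 514. Crypt stem and transit cell markers were below 0 in 10 of 10 (median -0.61), with sums of 87.7 to 158 and 69.0 to 96.0. Paneth cell markers were below 0 in 4 of 6 (median -0.41), with sums of 145 to 303 and 148 to 344. Control rat 3, with the highest stroma mean (15.49) and the lowest enterocyte mean (12.73) of the control bottoms, enters these values, and without it the median of the members was still -0.44, with 9 at an unadjusted p under 0.05. The part of the cell types in the member levels was not tested.

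At the top, unfed Belgrade and control rats had a median of -0.06, and 2 members had an unadjusted p under 0.05, both higher (6.56% of all probe sets). This median had no stable sign. It was -0.58 without unfed Belgrade rat 3, 0.17 without rat 4, 0.14 without the averaged sample of rats 1 and 2, -0.17 without the averaged control sample and 0.09 without control rat 4. Pcna was 1 of them, at 2.03 ± 0.51 (SE, 95% interval 0.98 to 3.09, adjusted p = 0.147), with means of 16.29 and 14.25. All 3 unfed Belgrade tops lay above all 3 control tops. It passed when all rats were counted separately (2.03, adjusted p = 0.0201), where near-identical arrays count as separate rats. Against iron-deficient rats Pcna at the top was higher in Belgrade rats by 1.54 ± 0.48 (SE, adjusted p = 0.798), and iron-deficient rat 3 lay within the Belgrade range. Over both segments Belgrade and iron-deficient rats gave a median of 0.05, with 3 members at an unadjusted p under 0.05, all higher in Belgrade rats, beside 4.6% of all probe sets. The median was -0.20 without unfed Belgrade rat 3, 0.17 without rat 4, 0.19 without the averaged sample of rats 1 and 2 and -0.02 without iron-deficient rat 1. At the top 4 members had such a p (5.44%), all higher in Belgrade rats, Top2a (1.84), Pcna, Bub1 (1.86) and Mcm5 (1.85), and at the bottom 4 did (4.27%), all lower, Plk1 (-0.63), Cdt1 (-0.65), Mcm3 (-0.48) and Bub1b (-0.56). The count at the bottom was 1 without the averaged unfed Belgrade sample or rat 3, and 9 without rat 4.

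Belgrade rats fed iron were compared with unfed ones for the effect of the iron. At the bottom the members differed from unfed rats by a median of 0.36 after 3 days and 0.33 after 6 days, with 37 of 41 above 0 in each case, beside 0.02 and 0.01 over all probe sets. An unadjusted p under 0.05 was found in 11 members after 3 days (3.84% of all probe sets) and in 8 after 6 days (4.7%), all higher, and 0 passed (lowest adjusted p of 1.00 and 0.994). Mki67 differed by 0.47 (95% interval 0.06 to 0.87) and by 0.44 (95% interval 0.00 to 0.87), and Bub1b by 0.75 after 3 days (95% interval 0.20 to 1.30). Without the averaged sample of unfed rats 1 and 2 the counts were 3 and 2, and without 3-day rat 3 or 6-day rat 3 they were 2 and 1, while without 3-day rat 2 the first was 24. With median centring they were 4 and 3. Both comparisons share the unfed Belgrade samples, and so does the one with the controls, in which these samples were low. Enterocyte markers were below 0 in 9 of 10 in each (medians -0.85 and -0.64), and crypt stem and transit cell markers above 0 in 10 of 10 and 9 of 10. Between 6 and 3 days the median at the bottom was -0.03, with 0 members at an unadjusted p under 0.05, beside 4.29% of all probe sets. Over both segments the counts were 1 after 3 days (2.76%), 2 after 6 days (4.22%) and 3 between 6 and 3 days (4.83%). Without unfed Belgrade rat 3 the first 2 counts were 8 and 9.

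At the top the iron-fed rats gave medians of 0.16 after 3 days and -0.10 after 6 days, and neither had a stable sign. After 3 days the median was 0.55 without unfed Belgrade rat 3, -0.08 without the averaged sample of rats 1 and 2, -0.05 without rat 4 and 0.03 without 3-day rat 1. After 6 days it was 0.23, -0.22 and -0.36 without the same unfed samples in turn, and -0.18 without 6-day rat 2. None of the members had an unadjusted p under 0.05 after 3 days (0 of 41, beside 2.06% of all probe sets) and 3, all lower, had one after 6 days (3.84%), and 2, both lower, between 6 and 3 days (4.47%). Without unfed Belgrade rat 3 the count after 3 days was 5, and after 6 days it was 6 without the averaged unfed sample and 1 without unfed rat 4, 6-day rat 2 or 6-day rat 3. The 3 after 6 days were Pcna (-1.34), Mcm5 (-1.94) and Cdkn1b (-0.58). All 3 tops of 6-day rats had less Pcna than the unfed Belgrade tops. The 2 between 6 and 3 days were Cdkn2c (-0.86) and Fen1 (-1.68).

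**Figure D4:**
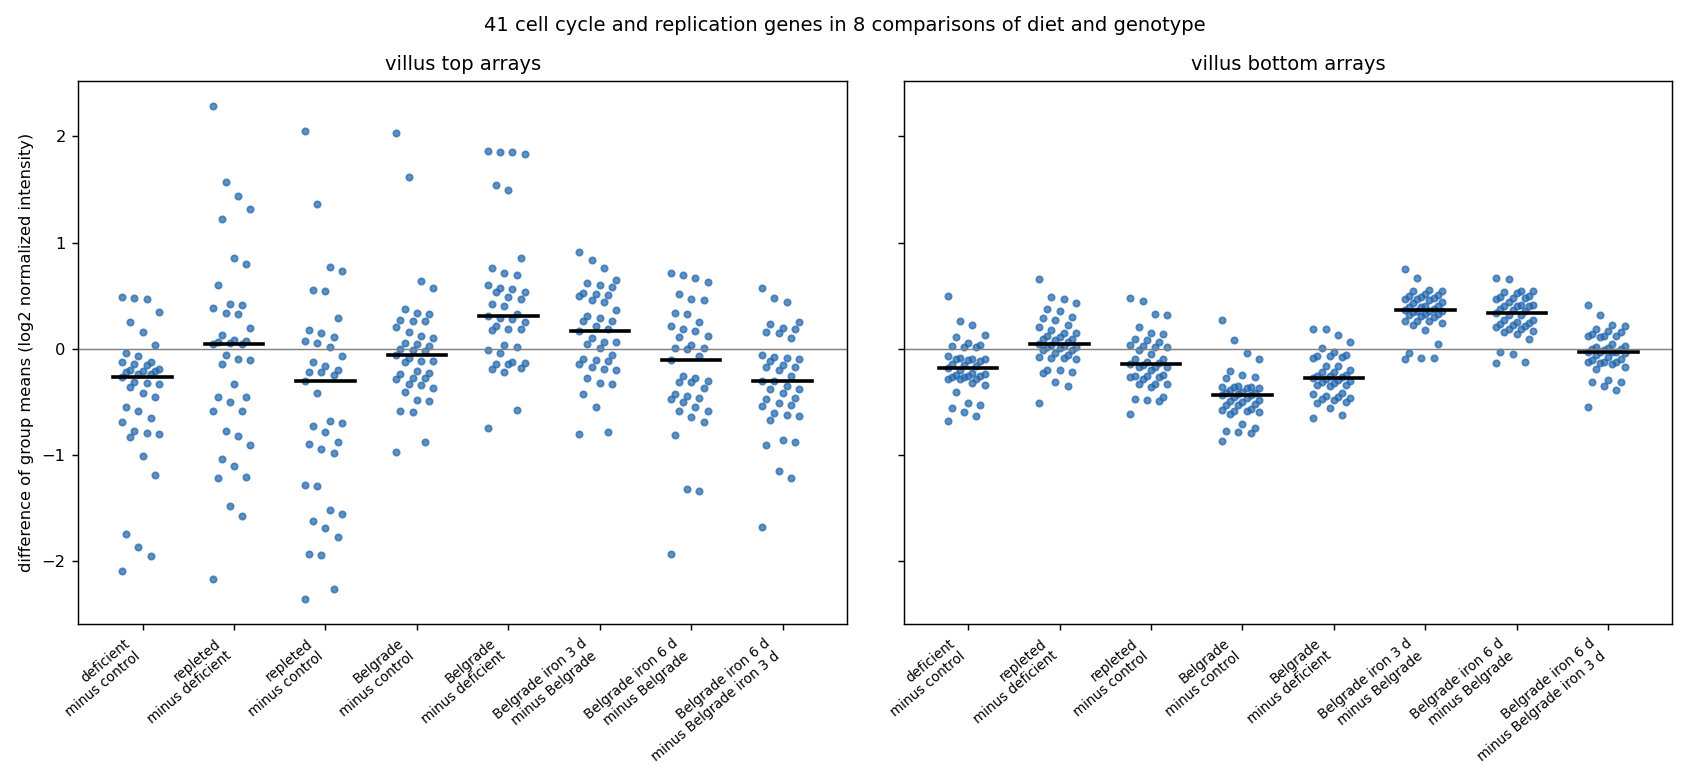
Differences of group means in log2 normalized intensity for the 41 genes in 8 comparisons of diet and genotype, for top arrays at the left and bottom arrays at the right. Each point is a gene and each black bar the median of the 41. None of the points passed the test. At the bottom the median for Belgrade minus control is -0.44 and those for iron-fed minus unfed Belgrade are 0.36 and 0.33, and differences spread more widely at the top.

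The members also varied together from rat to rat at the bottom, and less so at the top. Correlations between other genes were not set beside these. After the group means had been taken off, the median correlation between 2 members over the 20 samples was 0.44 at the bottom and 0.20 at the top. With the mean of the other members, apart from the inhibitors, Rrm1 (0.89), Mcm2 (0.88) and Cdk1 (0.87) had the highest correlations at the bottom, and Ccnd1 (-0.01), Cdkn1a (-0.01) and Cdk2 (0.11) the lowest. At the top Mki67 (0.91) was highest, and 7 members were below 0, Cdkn1b (-0.23), Cdkn1a (-0.22), Fen1 (-0.16), Pcna (-0.11), Pola1 (-0.10), Aurka (-0.06) and Cdk2 (-0.01). The members of a sample share its array and its pooled sections, and top levels were dim for 30 members on at least 1 array.

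The crypt arrays of 1 Wistar rat were set beside the villus levels without a test, since each part had 1 array. Of 41 members 39 were higher in the lower crypt, with a median of 1.59 beside -0.01 over all tested probe sets, and 35 were higher by more than 1, as 14.0% of all probe sets were. The lower crypt lay within the range of the villus bottoms for 38 members and the upper crypt within that of the villus tops for 37. These ranges pool all 6 groups and are wide at the top, as from 5.89 to 11.24 for Cdk1. The share of all probe sets within such ranges was not counted, so these 2 counts say little about the members. Fen1 had 11.24 in the lower and 7.27 in the upper crypt, Ccna2 13.79 and 10.37, Bub1b 11.25 and 8.29 and Mki67 14.06 and 11.96. Pcna was the other way round, with 15.72 in the lower and 16.62 in the upper crypt, above all villus tops. Cdkn1a (11.22 and 11.34) and Cdkn2c (10.71 and 10.70) were nearly level. Across the 41 members the crypt differences and the villus differences correlated at 0.68, and at 0.48 across all probe sets, which share the arrays and are not independent. Enterocyte markers averaged 15.12 in the lower and 16.40 in the upper crypt, the latter within the range of the villus tops (16.05 to 17.01), and the Paneth cell markers 13.25 and 11.44. Crypt stem and transit cell markers averaged 11.44 in the lower crypt, within the range of the villus bottoms (11.19 to 12.56), and 10.08 in the upper crypt. Their sum in the lower crypt was 63.6, below the villus bottoms (69.0 to 168). By this list the lower crypt array did not exceed the villus bottoms.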

How the data were processed

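Rat duodenal villus RNA was hybridised to Affymetrix arrays. The authors deposited 1 intensity for each probe set of an array, not log transformed, and the signal algorithm is not given in the sources used here. By the values, the authors had scaled each array to a trimmed mean of 2501 intensity units on 42 arrays and 2876 on 4, which hides any change common to most genes. Gene symbols came from the platform annotation (20826 probe sets with 1 symbol, 436 with several, 9780 with none, and 57 control probe sets left out), and promoters from RefSeq on GRCr8.

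A pseudocount of 43.5 (the 10th percentile of villus values) was added and log2 taken. Fold changes are on that scale and understate changes of dim genes. Villus arrays were quantile normalized, since their medians spanned 0.93, and the crypt arrays were placed on the villus quantiles. Probe sets over the 40th percentile on at least 3 villus arrays were tested (26517 of 31042). Rats in 1 group were counted once where the robust SD of their differences over 5464 bright probe sets was under 0.2 in both segments (control 1 and 2, unfed Belgrade 1 and 2). P values measure the spread between rats. limma 3.58.1 in R 4.3.3 (lmFit, eBayes with a trend; the package data.table, version 1.17.8) was fitted over 6 groups, with Benjamini-Hochberg adjustment over all tested probe sets and calls at an adjusted p under 0.05. Intervals are 95% moderated ones. The fits were tested on simulated data. A top minus bottom difference of 1 or 2 over the mean of groups was called in 61% and 96% of changed probe sets. For a change of the fall in iron-deficient against control rats these shares were 4% and 27%.

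Top and bottom of a rat were paired by the labels, and 19 of 22 tops correlated best with their own bottom. Rats of the same number in different groups were not treated as pairs: 0 of 15 group pairs had a correlation over 0.1 for every shared number. The members, lists and tests were chosen with earlier results of these data known. Values by sample are given for 8 fixed members and for those close to a call, ranges for the 12 with the lowest adjusted p along the villus, and the 4 of each other list with the lowest adjusted p. The sample values of Top2a, Aurka, Mcm5 and Plk1 were chosen after their values were seen. The alternatives were 2 other pseudocounts, 2 other normalizations, no filter, no trend, all rats separately, all probe sets of a gene, the rat number as a block, and leaving out each sample.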

Additional observations from a re-analysis of the deposited data

Results flagged for a closer look

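A sample was looked at again where its gap to the nearest other sample took up most of the range of its group, in groups of 4 samples. Chance alone gives about 1 in 20 such cases, and 7 were found among 108 groups of values.

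Iron-deficient rat 4 gave 3 of them. Its top minus bottom difference was -2.84 for Ccnd1, beside -2.15 to -2.03 in the other rats of the group, -2.85 for Ube2c, beside -2.19 to -2.16, and -2.24 for Kif11, beside -1.84 to -1.77. In iron-deficient rat 3 Cdkn1a was lower at the top than at the bottom (-0.16), while it was higher in the others (0.88 to 1.08).

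The other three came from Belgrade rats fed iron for 3 days. Ube2c at the top was 10.28 in rat 4, beside 10.70 to 10.78, and at the bottom 12.64 in rat 2, beside 13.22 to 13.27. The mean of the 41 members at the top was 10.67 in rat 1, beside 10.07 to 10.16.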

How the results depend on the processing

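The top minus bottom difference of each of the 41 members, averaged over groups, kept its sign under the alternatives run, and of the main counts 1286 alternative values stayed within 1.5 times of the reported one and 40 did not. The fall toward the top had a median of -2.61 to -2.28 under the other pseudocounts and normalizations, with 40 members below 0 in each. The counts of members called between groups, 0 as reported, became 1 in a few settings. For iron-deficient against control rats over both segments the count was 1 (Top2a) with 4 times the pseudocount, with the values as deposited, with all rats counted separately and with the rat number as a replicate block. For iron-repleted against control rats it was 1 (Aurka) over both segments with all rats separately, and at the top with median centring, all rats separately and the replicate block. With all rats separately it was also 1 at the top for iron-deficient (Top2a) and unfed Belgrade (Pcna) against control rats. The replicate block changed no other count between groups. Several medians of the members between groups changed sign when 1 sample was left out, as given beside them, and for iron-deficient against control bottoms the median turned from -0.18 to 0.05 with median centring.

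Cdkn1a, called higher at the top in iron-repleted rats only, gave 0 there with median centring and with the values as deposited, and 1 in control rats with all rats separately or without the pairing of top and bottom (no replicate block). With the mean of all probe sets of a gene the count of members higher at the top was 1 in control, iron-deficient, unfed, 3-day and 6-day Belgrade rats as well.

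Leaving out 1 sample at a time gave 0 to 1 called members for iron-deficient and iron-repleted against control rats over both segments, 0 to 2 for iron-repleted against iron-deficient rats over both segments, 0 to 1 and 0 to 2 for iron-deficient and iron-repleted against control rats at the top, and 0 to 1 for iron-repleted against iron-deficient rats at the top. It gave 16 to 37 members lower at the top in unfed Belgrade rats, and 0 to 1 higher in control, iron-deficient, iron-repleted, 3-day and 6-day rats. The causes were not tested. Signal limits the low end, since 6 members lay under the 40th percentile of the array on at least 11 of 22 top arrays, where the size of a fall rests on the pseudocount. The number of rats limits the comparisons between groups.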
